A study of Mus musculus with 8 samples.

Results

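The genes of the chemokines and of their receptors were followed in islets whose β cells carried an induced, active form of the receptor Notch1. Members were taken by symbol: every gene of the deposited count table named Ccl, Cxcl, Cx3cl, Xcl, Ccr, Cxcr, Cx3cr or Xcr with a number and at most 1 further letter, together with Ackr1 to Ackr4, Ccrl2, Pf4 and Ppbp. This gave 64 of 32531 genes, 41 ligands and 23 receptors. Islets came from 4 control mice, which carried RIP-Cre and Rosa26-rtTA but not tetO_NICD, and from 4 β-tetO-NICD mice, which carried all 3 alleles. Both groups received doxycycline (Dox) for 8 weeks. RIP-Cre expresses Cre from an insulin promoter and so acts mainly in β cells. Cre switches on rtTA there, and with Dox rtTA drives tetO_NICD, which encodes the Notch1 intracellular domain. The mice were of mixed background (C57BL/6J, 129X1/SvJ and BALB/c), and their age at collection is not given in the sources used here. Whole islets were sequenced, with the leukocytes, vessel cells and remaining exocrine cells that collagenase digestion leaves, so a larger number of cells of 1 type and more RNA per cell cannot be told apart.

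Chemokines are small secreted proteins that bind to the sugar chains of cell surfaces and matrix and draw leukocytes along their gradients. The families CXC, CC, CX3C and XC are named after the spacing of their first cysteines, and most receptors are coupled to inhibitory G proteins, whereas the atypical receptors bind chemokines without G protein signalling and clear them or set up their gradients. Inflammatory chemokines are made on demand, often through NF-κB and interferons, while homeostatic chemokines place lymphocytes and stem cells in their tissues. In islets CXCL10 is best known from the leukocyte infiltrate of autoimmune diabetes.

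Total counts were between 22430941 and 25950164 in control libraries and between 21701223 and 26413146 in β-tetO-NICD libraries. Levels are given as CPM, counts scaled to library size by edgeR's TMM method. On this scale 3 counts, taken as the floor of detection for counting error alone, came to at most 0.138 CPM in controls, against 0.151 CPM in β-tetO-NICD libraries. The members together held 0.0108% to 0.0149% of the counts in controls, against 0.0141% to 0.0216% in β-tetO-NICD libraries. Notch1 had 1051 to 1562 counts in the control libraries and 11388 to 36628 in the β-tetO-NICD libraries, as the labels say. The β-tetO-NICD columns are numbered 1, 2, 4 and 5 while the mice are labelled 1 to 4, so libraries 4 and 5 belong to the group but to no particular mouse. Y-linked Eif2s3y had 1300 counts or more in control 2, control 4 and β-tetO-NICD 5 and at most 1 count in the other 5 libraries. By the study's methods, gene expression was measured in islets of male mice, which the near absence of this Y-linked transcript in 5 libraries goes against, and the labels give no sex. Libraries also differed in how their levels went with transcript length: Spearman's rho across 14655 genes was 0.418 to 0.497 in controls 1, 2 and 4, was 0.446 in β-tetO-NICD 1, and was -0.521 to -0.174 in the other 4. β-tetO-NICD 1, which had the lowest Cxcl10 and Ccl5 of its group, thus sided with most controls on length. The labels number the libraries as single mice, and p values measure the spread between these libraries.

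Of the 64 members, 31 had at least 10 counts in at least 4 libraries and entered the fit of 15082 genes. Chemokine transcripts were scarce: 24 members reached a mean of 1 CPM over the 8 libraries and 5 reached 10 CPM. In β-tetO-NICD islets the ligands Cxcl10, Ccl5 and Cx3cl1 and the receptors Cxcr6 and Ccr1 rose, and the atypical receptor Ackr3 fell. The 6 called members were 19.4% of those tested, where 6.76% of all tested genes were called, with 4.19% of all tested genes higher and 2.57% lower. The groups did not overlap in 8 tested members, 7 with β-tetO-NICD above, beside 16.1% of all tested genes without overlap (8.22% above and 7.92% below). An unadjusted p under 0.05 was reached by 14 of the 31 members and by 31.6% of all genes. The median log2 fold change of the tested members was 0.68, with 14 of 18 ligands and 8 of 13 receptors above 0, and that of all tested genes was 0.00. Cxcr6 passed the minimum through the β-tetO-NICD libraries alone, so these counts over tested members describe them and are not support. The remaining 33 members fell under the minimum and are described by their counts. Each log2 change is the fitted log2 fold change of β-tetO-NICD over control. Adjusted p values are from the quasi-likelihood test of edgeR, adjusted over all 15082 genes by the method of Benjamini and Hochberg, with n = 4 a group throughout.

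**Figure D1:**
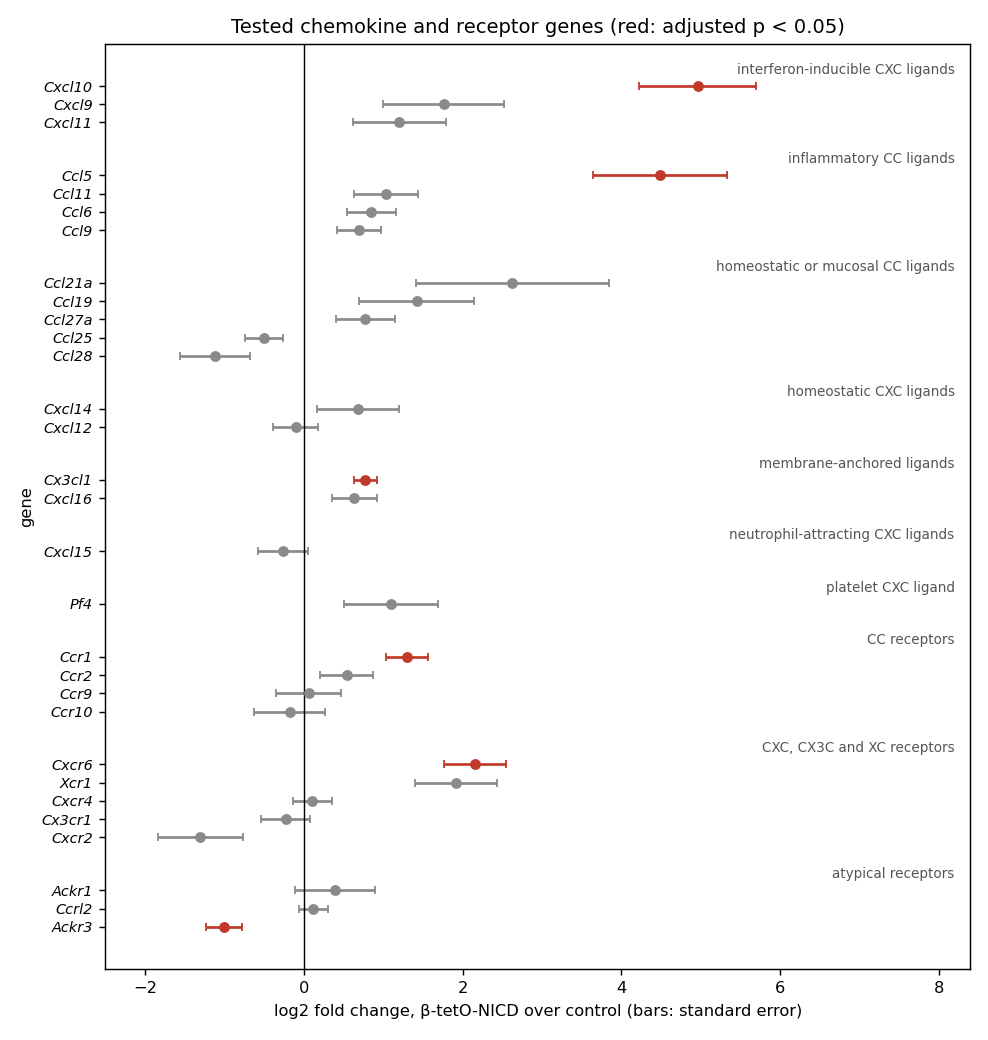
Log2 fold change of β-tetO-NICD over control (horizontal axis) for 30 of the 31 tested chemokine and receptor genes (vertical axis), grouped by role, with bars for the standard error and red for an adjusted p under 0.05. Cxcl10 and Ccl5 stand farthest to the right at 4.96 and 4.49, and Ackr3 is the only red point left of 0.

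The interferon-inducible ligands Cxcl9, Cxcl10 and Cxcl11 share the receptor CXCR3 of activated T and NK cells and lie side by side on chromosome 5. Cxcl10 was the member with the largest log2 fold change. Its level was 0.277, 0.760, 0.712 and 1.75 CPM in controls 1 to 4, against 4.75, 47.5, 23.6 and 34.6 CPM in β-tetO-NICD 1, 2, 4 and 5. Every β-tetO-NICD library lay above every control, and β-tetO-NICD 1 was the lowest of its group with 100 counts where the other 3 had 687 to 1088. The control mean was 0.874 ± 0.620 CPM (SD, n = 4) and the β-tetO-NICD mean 27.6 ± 18.1 CPM (SD, n = 4), with a log2 change of 4.96 ± 0.73 (standard error) and an adjusted p of 0.00489 by edgeR's test. With each library left out in turn the log2 change was between 4.57 and 5.55, and it passed the threshold in all 8 of these fits. Cxcl10 lies at chr5:92346638-92348889 on the minus strand of GRCm38, within the span of Art3 on the opposite strand, which had a mean of 6.83 CPM and a log2 change of 0.61 (adjusted p = 0.119 in edgeR's test). Whether the counting used the strand of the stranded libraries is not given in the sources used here.

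GENCODE gives Cxcl11 the biotype polymorphic pseudogene, so its transcript may not encode an intact protein in all of these mice of mixed background. Cxcl11 had 0.461, 1.18, 5.10 and 2.80 CPM in controls, against 5.89, 6.81, 3.52 and 5.94 CPM in the β-tetO-NICD group. Control 3 was above β-tetO-NICD 4, so the groups overlapped, and the log2 change was 1.20 ± 0.58 (standard error, adjusted p = 0.182 in edgeR's test), or 1.89 without control 3 (adjusted p = 0.0668). Cxcl9 was low, with 3, 4, 12 and 11 counts in controls, against 6, 15, 14 and 58 in the β-tetO-NICD group. The groups of Cxcl9 overlapped apart from the 58 counts of β-tetO-NICD 5, and its log2 change of 1.76 ± 0.77 (standard error) had an adjusted p of 0.150. Without that library it was 0.59 (adjusted p = 0.491 in edgeR's test). Their receptor gene Cxcr3 was under the minimum, with 2, 7, 5 and 0 counts in controls, against 6, 21, 9 and 16 in the β-tetO-NICD group.

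**Figure D2:**
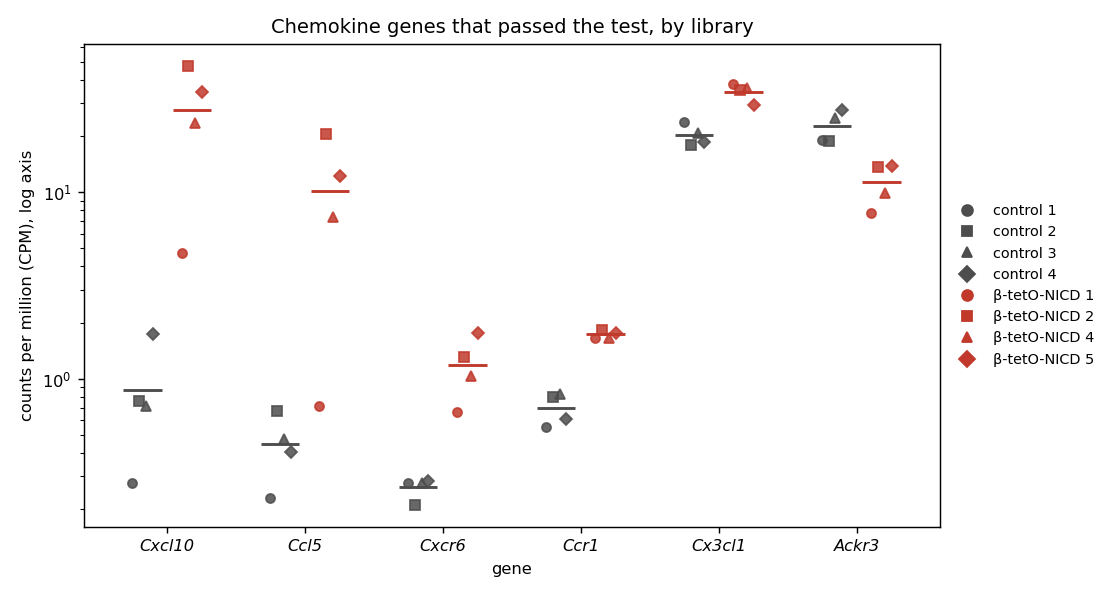
Level of the 6 chemokine and receptor genes that passed the test in each library (CPM, log axis), with 1 symbol a library, grey for control and red for β-tetO-NICD, and a line at each group mean. In Cxcl10 and Ccl5 the red circle of β-tetO-NICD 1 lies far under the other 3 red symbols, at 4.75 and 0.713 CPM.

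The sequence before the start of Cxcl10 is shown because this gene changed most, and those of Ccr1 and Ackr3 stand beside it as a receptor that rose and the one member that fell. Each is the 250 bases upstream of the start in RefSeq's annotation of GRCm38.p6, 5′ to 3′ on the gene's own strand: chr5:92348890-92349139 (minus) for Cxcl10, chr9:123968693-123968942 (minus) for Ccr1 and chr1:90203730-90203979 (plus) for Ackr3. Capitals mark matches, on either strand, to 3 motifs: TGGGAA, the core bound by RBPJ, the DNA-binding partner of NICD, the κB frame, which is GGG and CC parted by any 5 bases, and the interferon response frame, which is GAAA and GAAA parted by any 2 bases.
Cxcl10: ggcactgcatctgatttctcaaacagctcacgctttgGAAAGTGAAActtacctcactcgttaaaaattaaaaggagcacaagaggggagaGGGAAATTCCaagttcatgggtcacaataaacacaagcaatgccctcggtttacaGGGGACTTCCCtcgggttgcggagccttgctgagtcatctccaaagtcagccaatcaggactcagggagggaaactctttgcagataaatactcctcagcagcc
Ccr1: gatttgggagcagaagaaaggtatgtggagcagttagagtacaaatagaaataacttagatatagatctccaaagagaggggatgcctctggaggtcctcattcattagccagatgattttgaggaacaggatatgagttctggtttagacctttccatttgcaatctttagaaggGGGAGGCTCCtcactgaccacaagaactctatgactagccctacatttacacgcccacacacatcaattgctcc
Ackr3: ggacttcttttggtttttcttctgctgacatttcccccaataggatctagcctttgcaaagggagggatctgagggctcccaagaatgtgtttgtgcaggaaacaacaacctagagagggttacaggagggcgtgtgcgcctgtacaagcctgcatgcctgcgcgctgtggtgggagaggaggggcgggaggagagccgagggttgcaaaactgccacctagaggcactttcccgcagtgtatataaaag
Cxcl10 held the interferon frame once, at bases 213 to 204 before its start, and the κB frame at 159 to 150 and in a second stretch at 104 to 94, where 3 matches overlap. Ccr1 held 1 κB frame at bases 74 to 65, Ackr3 held none of the 3 motifs, and none was found in the window of Cxcr6. The window of Cx3cl1, chr8:94771930-94772179, held TGGGAA once, on the reverse strand at bases 159 to 154 before RefSeq's start. GENCODE starts this gene earlier, at 94772009, so most of the window, the match included, lies within the gene as GENCODE places it. Of 32851 such windows of all genes, 21.6% held TGGGAA, 45.8% the κB frame and 2.98% the interferon frame. Among the 30 windows of the 25 tested members that had any, the shares were 16.7%, 43.3% and 10%. No window was used for Ccl5. A match says only that these letters are there.

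Inflammatory CC ligands draw monocytes, T cells and eosinophils, and 4 of the 13 could be tested, all on chromosome 11. Ccl5, a product of activated T cells, NK cells and stimulated tissue cells, rose. Its level was 0.231, 0.676, 0.475 and 0.406 CPM in controls, against 0.713, 20.5, 7.37 and 12.2 CPM in the β-tetO-NICD group. The group was divided: β-tetO-NICD 2, 4 and 5 had 222 to 469 counts, while β-tetO-NICD 1 had 15, against 16 in the highest control. The control mean was 0.447 ± 0.184 CPM (SD, n = 4) and the β-tetO-NICD mean 10.2 ± 8.32 CPM (SD, n = 4), with a log2 change of 4.49 ± 0.84 (standard error) and an adjusted p of 0.0148 by edgeR's test. In the 8 fits that each left out 1 library the log2 change was between 3.90 and 4.88, and the call was lost without control 1 (adjusted p = 0.0519 in edgeR's test) and without control 4 (adjusted p = 0.0552). It was also lost with limma-voom (adjusted p = 0.0916). Ccl5 lies at chr11:83525778-83530518 on the minus strand.

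The neighbours of Ccl5 on chromosome 11, Ccl6 and Ccl9, are CC ligands of macrophages that bind CCR1. Ccl9 had 1.11, 1.73, 1.62 and 1.26 CPM in controls, against 1.95, 2.49, 1.86 and 2.97 CPM in the β-tetO-NICD group, and Ccl6 had 1.06, 2.24, 1.42 and 1.38 CPM and 2.47, 3.28, 1.99 and 3.33 CPM. For Ccl9 the groups did not overlap, yet neither gene passed the test, with log2 changes of 0.69 for Ccl9 (standard error 0.28, adjusted p = 0.132 in edgeR's test) and 0.85 for Ccl6 (standard error 0.31, adjusted p = 0.108). The longest transcripts of the pair shared 83.6% of 174 aligned bases. Ccl11, the eosinophil attractant eotaxin, had 2.31, 4.31, 2.37 and 1.54 CPM in controls, against 2.76, 5.68, 4.55 and 8.72 CPM in the β-tetO-NICD group, with overlap between the groups and a log2 change of 1.04 ± 0.40 (standard error, adjusted p = 0.124 in edgeR's test). Without β-tetO-NICD 1 its adjusted p was 0.0288, in a fit that called 5011 of all 15082 genes, where the main fit called 1020.

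Among the inflammatory CC ligands under the minimum were the monocyte and T cell attractants Ccl2, Ccl3, Ccl4, Ccl8, Ccl12 and Ccl24. Ccl2 had 7, 0, 1 and 3 counts in controls, against 18, 11, 8 and 13 in the β-tetO-NICD group. The ratio of its summed counts, scaled for library size, was 4.61 (95% exact interval 2.37 to 9.82 for counting error alone). Ccl3 and Ccl4, attractants of macrophages and T cells, stayed at 1 to 7 counts in all 8 libraries. Ccl24, another eosinophil attractant, had 7, 14, 3 and 12 counts in controls, against 9, 4, 4 and 4 in the β-tetO-NICD group. Ccl8 reached 14 counts in control 2 and 13 in β-tetO-NICD 5 and had at most 7 elsewhere, and Ccl12 had at most 8 counts in any library. Scaled to library size, the groups overlapped in each of these 6 genes, in Ccl2 because control 1 (0.323 CPM) lay above β-tetO-NICD 4 (0.266 CPM).

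Both membrane-anchored ligands, Cx3cl1 (fractalkine) and Cxcl16, are made as transmembrane proteins with a chemokine head that proteases can release, and both were among the best measured members. Cx3cl1 had 23.7, 17.9, 20.9 and 18.5 CPM in controls, against 38.1, 35.2, 36.1 and 29.2 CPM in the β-tetO-NICD group. All β-tetO-NICD libraries lay above all controls, β-tetO-NICD 1 among them with the highest value, unlike in Cxcl10 and Ccl5. The control mean was 20.3 ± 2.64 CPM (SD, n = 4) and the β-tetO-NICD mean 34.6 ± 3.81 CPM (SD, n = 4), with a log2 change of 0.77 ± 0.15 (standard error) and an adjusted p of 0.0164 by edgeR's test. The size held at 0.72 to 0.87 with each library left out, but the call was lost without control 2 (adjusted p = 0.0600 in edgeR's test), control 4 (0.0621), β-tetO-NICD 2 (0.0554) or β-tetO-NICD 4 (0.0590). The gene lies at chr8:94772009-94782427 on the plus strand.

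Cxcl16, the ligand of CXCR6, had 7.79, 6.42, 10.01 and 4.10 CPM in controls, against 8.27, 11.004, 10.1 and 14.6 CPM in the β-tetO-NICD group. Control 3 lay within the β-tetO-NICD range, and the log2 change of 0.63 ± 0.28 (standard error) had an adjusted p of 0.158. In the 5 libraries without Eif2s3y counts it was 0.14 (adjusted p = 0.847 in edgeR's test).

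Homeostatic and mucosal CC ligands guide lymphocytes to lymphoid tissue, skin and mucosa. None of the 5 tested of 11 passed the test, and the values of the 8 libraries overlapped in each. Ccl19 and Ccl21a, the ligands of CCR7, were uneven. Ccl19 had 0.461, 1.44, 0.673 and 0.365 CPM in controls, against 0.190, 3.58, 1.46 and 2.67 CPM in the β-tetO-NICD group. Its log2 change was 1.42 ± 0.72 (standard error, adjusted p = 0.198 in edgeR's test). The adjusted p was 0.0251 without β-tetO-NICD 1, a fit in which 5011 of all 15082 genes were called. Ccl21a had 12, 0, 18 and 0 counts in controls, against 23, 68, 113 and 0 in the β-tetO-NICD group. It was at 0 in the same 3 libraries that had Eif2s3y counts, and its log2 change was 2.63 ± 1.22 (standard error, adjusted p = 0.169 in edgeR's test). Ccl21a is uncertain, because it shares 99.5% of 402 aligned bases with Ccl21b and the counting could split reads between them.

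Ccl27a, a skin T cell attractant of the CCR10 system, had 5.53, 4.86, 10.2 and 5.60 CPM in controls, against 6.27, 11.9, 7.84 and 18.9 CPM in the β-tetO-NICD group, and its log2 change was 0.78 ± 0.37 (standard error, adjusted p = 0.177 in edgeR's test). Ccl28, the mucosal ligand of the same receptor, pointed the other way, with 4.98, 13.0, 14.4 and 5.60 CPM in controls, against 7.41, 4.19, 3.55 and 2.32 CPM in the β-tetO-NICD group. Its log2 change of -1.12 ± 0.44 (standard error) had an adjusted p of 0.126 in edgeR's test. The level of β-tetO-NICD 1 was above those of controls 1 and 4. Without that library the adjusted p was 0.0262, in the fit that called 5011 of all 15082 genes. Ccl25, which attracts thymocytes and gut T cells, had 2.81, 4.14, 2.97 and 3.94 CPM in controls, against 2.90, 1.92, 2.52 and 2.42 CPM in the β-tetO-NICD group, and a log2 change of -0.51 ± 0.24 (standard error, adjusted p = 0.179 in edgeR's test).

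Other ligands of lymphocytes and dendritic cells were under the minimum, and most of their counts came from β-tetO-NICD islets. Ccl22, a dendritic cell product that binds CCR4, had 1, 2, 0 and 1 counts in controls, against 7, 19, 12 and 7 in the β-tetO-NICD group. Ccl20, the ligand of CCR6, had 3, 0, 0 and 0 counts in controls, against 5, 6, 14 and 8 in the β-tetO-NICD group. For both genes each β-tetO-NICD library was above each control, with ratios of summed counts of 11.4 for Ccl22 (95% exact interval 4.16 to 43.7) and 11.2 for Ccl20 (3.50 to 56.9), which cover counting error alone. Ccl17, the other CCR4 ligand, had 0, 5, 2 and 0 counts in controls, against 0, 8, 6 and 10 in the β-tetO-NICD group, and the T and NK cell product Xcl1 had 1, 0, 0 and 0 and 0, 5, 5 and 9. Both were at 0 in β-tetO-NICD 1.

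Homeostatic CXC ligands include Cxcl12, which retains stem cells and lymphocytes through CXCR4, and Cxcl13, which draws B cells into follicles. Cxcl12 had 8.39, 14.6, 6.53 and 13.6 CPM in controls, against 10.1, 7.16, 10.3 and 12.7 CPM in the β-tetO-NICD group, with intermixed groups and a log2 change of -0.10 ± 0.28 (standard error, adjusted p = 0.816 in edgeR's test). Cxcl14, an epithelial and stromal chemokine, had 1.01, 3.46, 0.910 and 2.88 CPM in controls, against 1.38, 3.54, 3.02 and 5.39 CPM in the β-tetO-NICD group, and its log2 change was 0.68 ± 0.52 (standard error, adjusted p = 0.371). Cxcl13 had 59 counts in β-tetO-NICD 1 and 1 to 7 counts in the other 7 libraries. That library also had the most counts of the B cell marker Ms4a1 (65, against 2 to 6 elsewhere).

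Neutrophil-attracting CXC ligands, which act through CXCR2, and the platelet ligand Pf4 were near the floor. Cxcl15 was the only tested gene of the 6 neutrophil attractants, at 0.554 to 0.974 CPM over all 8 libraries with a log2 change of -0.26 ± 0.32 (standard error, adjusted p = 0.575 in edgeR's test). Cxcl1 had 1, 5, 0 and 4 counts in controls, against 10, 5, 6 and 11 in the β-tetO-NICD group, and Cxcl2 had 8 counts in β-tetO-NICD 1 and at most 4 elsewhere. Pf4, stored in platelet granules, had a log2 change of 1.10 ± 0.59 (standard error, adjusted p = 0.221), with 29 counts in β-tetO-NICD 5 against 7 to 13 in the rest of that group. Without that library its log2 change was 0.40 (adjusted p = 0.613 in edgeR's test), and with an offset for transcript length 0.51.

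Receptors of the CC family are carried by leukocytes, and 5 of the 10 were tested. Ccr1, found on monocytes, macrophages and neutrophils and bound by CCL5, CCL6 and CCL9, rose. It had 0.553, 0.802, 0.831 and 0.609 CPM in controls, against 1.66, 1.83, 1.66 and 1.76 CPM in the β-tetO-NICD group. The β-tetO-NICD libraries, with 35 to 50 counts each, were closely alike and all above the 12 to 21 counts of the controls. The control mean was 0.699 ± 0.138 CPM (SD, n = 4) and the β-tetO-NICD mean 1.73 ± 0.0842 CPM (SD, n = 4), with a log2 change of 1.30 ± 0.27 (standard error) and an adjusted p of 0.0219 by edgeR's test. Over the 8 fits with 1 library fewer it ran from 1.22 to 1.39, and the call was lost without control 1 (adjusted p = 0.0678 in edgeR's test), control 2 (0.0522), control 4 (0.0718), β-tetO-NICD 2 (0.0700) or β-tetO-NICD 4 (0.0627). Ccr1 lies at chr9:123962124-123968692 on the minus strand.

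The CC receptors Ccr2, Ccr9 and Ccr10 did not pass the test. Ccr2, the CCL2 receptor of inflammatory monocytes, had 1.89, 4.48, 2.61 and 1.95 CPM in controls, against 2.80, 3.58, 4.75 and 4.74 CPM in the β-tetO-NICD group, with a log2 change of 0.54 ± 0.33 (standard error, adjusted p = 0.271 in edgeR's test). The groups overlapped. Ccr2 is uncertain, because its longest transcript shares 87.4% of 903 aligned bases with that of another gene and reads could be split between them. Ccr9 and Ccr10, receptors of gut and skin lymphocytes, were at 0.198 to 0.934 CPM, with log2 changes of 0.06 and -0.18 (adjusted p = 0.931 and 0.801 in edgeR's test) whose signs changed between settings.

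Ccr7, which leads dendritic cells and naive T cells to lymph nodes, was under the minimum, with 0, 1, 1 and 0 counts in controls, against 20, 8, 7 and 10 in the β-tetO-NICD group. The ratio of its summed counts was 22.8 (95% exact interval 5.96 to 194 for counting error alone), with no overlap between the groups. In a fit without the filter on low counts, over 21879 genes, Ccr7 had an adjusted p of 0.0150, Ccl22 one of 0.0230, Cxcr5 one of 0.0419 and Ccl20 one of 0.0740 in edgeR's test. They are the untested members whose groups did not overlap, so these p values are no support beyond the counts. Among untested members whose groups overlapped, Xcl1 had an adjusted p of 0.0983 and Ccl2 one of 0.121 in that fit. Ccr3, the eosinophil receptor, had at most 10 counts in any library.

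**Figure D3:**
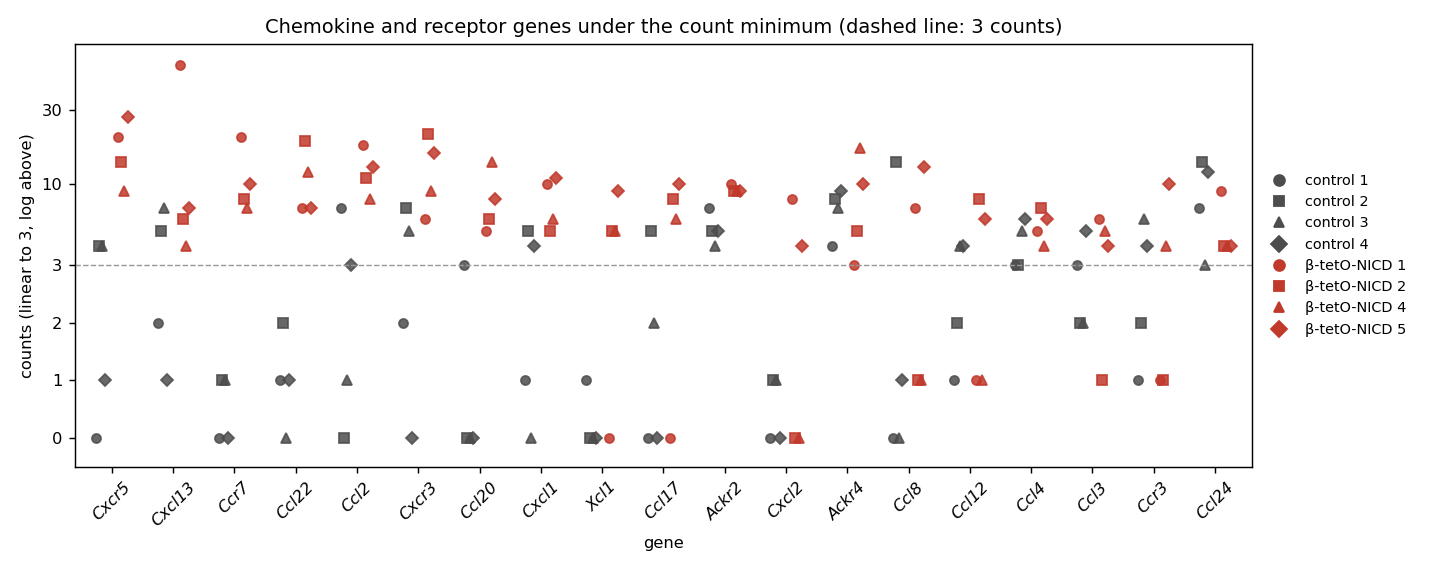
Counts in each library for the 19 chemokine and receptor genes under the minimum that had more than 3 counts in at least 2 libraries (vertical axis linear to 3 and log above, dashed line at 3 counts), with grey for control and red for β-tetO-NICD. In Cxcr5, Ccr7, Ccl22, Ccl20, Ccl2 and Ackr2 all red symbols lie above all grey ones, though Ccl2 and Ackr2 overlap once scaled to library size. The 59 counts of Cxcl13 belong to β-tetO-NICD 1.

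Of the CXC, CX3C and XC receptors, 5 of 8 were tested. Cxcr6, the CXCL16 receptor of tissue-resident T and NK cells, rose. It had 6, 5, 7 and 7 counts in controls (0.211 to 0.284 CPM) and 14, 30, 31 and 35 counts in β-tetO-NICD libraries, or 0.665, 1.31, 1.03 and 1.76 CPM. No control reached the lowest β-tetO-NICD library, and β-tetO-NICD 1 was again the lowest of its group. The control mean was 0.262 ± 0.0342 CPM (SD, n = 4) and the β-tetO-NICD mean 1.19 ± 0.463 CPM (SD, n = 4), with a log2 change of 2.16 ± 0.39 (standard error) and an adjusted p of 0.0120 by edgeR's test. Cxcr6 entered the test through the β-tetO-NICD libraries alone, so its adjusted p is no support beyond the counts given. With each library left out in turn the log2 change was 1.92 to 2.35. The gene lies at chr9:123806475-123811760 on the plus strand, inside Fyco1 on the opposite strand, which had a mean of 45.5 CPM and was lower in β-tetO-NICD islets without passing the test (adjusted p = 0.0981 in edgeR's test).

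Xcr1 is given although its adjusted p missed the threshold, a choice made after its values were seen. It is the receptor of cross-presenting dendritic cells and had 2, 6, 3 and 11 counts in controls, against 10, 20, 36 and 19 in the β-tetO-NICD group. After scaling the groups did not overlap (0.0922 to 0.447 CPM against 0.475 to 1.20 CPM), and the log2 change was 1.92 ± 0.51 (standard error, adjusted p = 0.0540 in edgeR's test). Across the 17 alternative settings it had an adjusted p between 0.0146 and 0.132, under 0.05 in 8 of them. With the block for the replicate number the adjusted p was 0.0483.

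Cxcr4, the CXCL12 receptor of most leukocytes, had 4.20, 4.39, 4.83 and 3.37 CPM in controls, against 4.70, 3.01, 4.58 and 5.79 CPM in the β-tetO-NICD group, a log2 change of 0.11 ± 0.24 (standard error, adjusted p = 0.777 in edgeR's test). Cx3cr1, the fractalkine receptor of macrophages and monocytes, had 8.21, 11.1, 7.79 and 20.01 CPM in controls, against 7.84, 8.995, 11.1 and 12.3 CPM in the β-tetO-NICD group, and a log2 change of -0.23 ± 0.31 (standard error, adjusted p = 0.620). For neither of them did the groups stand apart. Cxcr2, the receptor of neutrophils, had 1.94, 2.83, 0.791 and 4.06 CPM in controls, against 1.28, 0.393, 0.730 and 1.51 CPM in the β-tetO-NICD group, with a log2 change of -1.30 ± 0.54 (standard error, adjusted p = 0.139). Cxcr5, the CXCL13 receptor of B cells and follicular T cells, was under the minimum, with 0, 4, 4 and 1 counts in controls, against 20, 14, 9 and 27 in the β-tetO-NICD group, a ratio of summed counts of 7.89 (95% exact interval 3.93 to 17.97 for counting error alone) without overlap.

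Cxcr6, Xcr1, Ccr1 and Ccr2 stand in 1 run of receptor genes on chromosome 9 that begins with Ccr9 at 123678439. Along it the log2 changes were 0.06 for Ccr9, 2.16 for Cxcr6, 1.92 for Xcr1, 1.30 for Ccr1 and 0.54 for Ccr2, with Xcr1 between both called receptors. Ccr3, between Ccr1 and Ccr2, was not tested.

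Atypical receptors bind chemokines without G protein signalling. Ackr3, which takes up CXCL12 and CXCL11 and lowers their free level, was the member with the highest level per transcript length in controls, and it fell. It had 19.05, 18.7, 25.05 and 27.7 CPM in controls, against 7.75, 13.7, 9.86 and 13.8 CPM in the β-tetO-NICD group. All β-tetO-NICD libraries were below all controls. The control mean was 22.6 ± 4.46 CPM (SD, n = 4) and the β-tetO-NICD mean 11.3 ± 2.99 CPM (SD, n = 4), with a log2 change of -1.01 ± 0.23 (standard error) and an adjusted p of 0.0302 by edgeR's test. Over the 8 fits with 1 library fewer it ran from -1.12 to -0.86, but the call held only without β-tetO-NICD 1 (adjusted p = 0.0138 in edgeR's test) or β-tetO-NICD 5 (0.0336), and was lost without control 1 (0.0594), control 2 (0.0528), control 3 (0.0573), control 4 (0.100), β-tetO-NICD 2 (0.0571) or β-tetO-NICD 4 (0.0962). With Eif2s3y as a covariate it was 0.0536. Ackr3 lies at chr1:90203980-90216751 on the plus strand.

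Ccrl2, which holds chemerin and chemokines on the cell surface, was among the least variable members, with 7.10, 7.05, 5.90 and 7.35 CPM in controls, against 8.27, 7.95, 7.74 and 5.74 CPM in the β-tetO-NICD group, and a log2 change of 0.12 ± 0.18 (standard error, adjusted p = 0.674 in edgeR's test). Ackr1, the chemokine carrier of venules and red cells, had 1.11, 4.90, 1.42 and 2.15 CPM in controls, against 1.43, 3.71, 2.79 and 4.63 CPM in the β-tetO-NICD group, and a log2 change of 0.39 ± 0.50 (standard error, adjusted p = 0.603), or 1.01 without control 2 (adjusted p = 0.214). In both the groups overlapped. Ackr2, a scavenger of inflammatory CC chemokines, had 4 to 7 counts in controls, against 9 or 10 in β-tetO-NICD libraries (overlapping once scaled to library size), and Ackr4, a scavenger of CCL19, CCL21 and CCL25, had 4, 8, 7 and 9 and 3, 5, 17 and 10.

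The 14 remaining untested members had more than 3 counts in at most 1 library. They were Ccl1, Ccl7, Ccl21b, Ccl21c, Ccl26, Ccl27b, Ccr4, Ccr6, Ccr8, Cxcl3, Cxcl5, Cxcl17, Cxcr1 and Ppbp, of which Ccl26, Ccl27b and Cxcr1 had 0 counts in every library. A count of 0 at this depth allows up to 0.151 CPM, so these 3 were not detectable and not shown to be absent. The receptors CCR4 and CCR6 of the ligands Ccl22, Ccl17 and Ccl20 were nearly without counts.

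Per kilobase of the longest transcript, which allows levels of different genes to be set side by side, the order of the members differed between the groups. In controls Ackr3 led with 7.39 CPM per kb, followed by Ccl27a with 6.57, Cx3cl1 with 6.11 and Ccrl2 with 2.79 CPM per kb. In β-tetO-NICD islets Ccl5 led with 15.3 CPM per kb and Cxcl10 followed with 12.4, ahead of Ccl27a with 11.3 and Cx3cl1 with 10.4 CPM per kb. Ackr3 stood at rank 7 there with 3.68 CPM per kb. Ccl5 and Cxcl10 had been at ranks 17 and 22 in controls, with 0.669 and 0.392 CPM per kb. These ranks rest on means and on few libraries. Without β-tetO-NICD 2, a check chosen after seeing the data, the means were 11.04 CPM per kb for Ccl27a, 10.4 for Cx3cl1, 10.1 for Ccl5 and 9.41 for Cxcl10. Ccl27a led in β-tetO-NICD 5 and Cx3cl1 in β-tetO-NICD 1. The different trends of level with transcript length in the libraries, given above, bear on any such order and their part was not tested. In β-tetO-NICD 1 the level of Ccl5, 0.713 CPM, was close to the 0.676 CPM of the highest control.

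**Figure D4:**
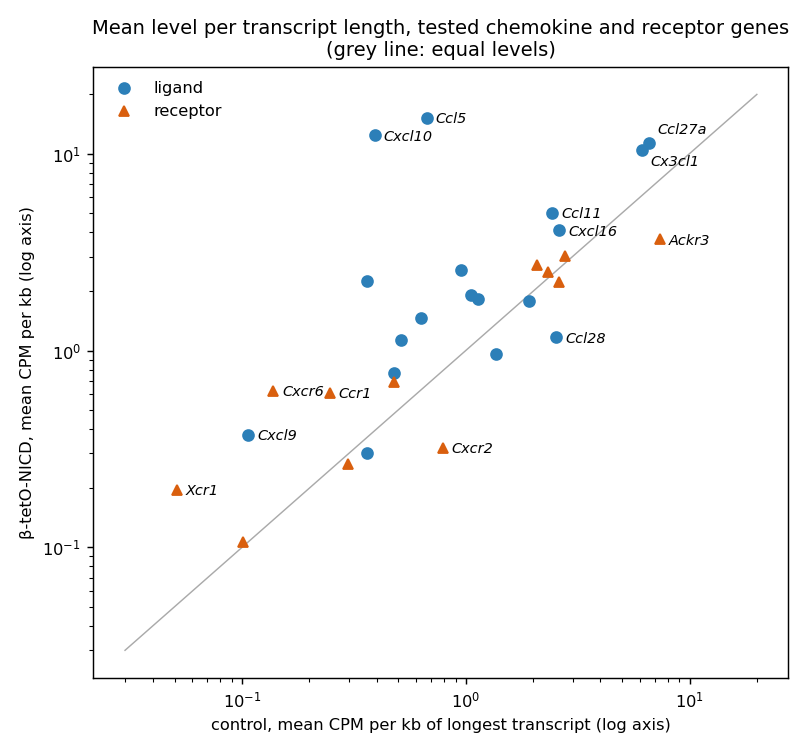
Mean level of tested chemokine and receptor genes per kilobase of its longest transcript, in controls (horizontal axis) and in β-tetO-NICD islets (vertical axis), both log axes in CPM per kb, with circles for ligands, triangles for receptors and a grey line of equal levels. Ccl5 and Cxcl10 lie farthest above the line and Ackr3 is the highest receptor below it.

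Without the 3 libraries that had Eif2s3y counts, 2 controls and 3 β-tetO-NICD libraries remained, and no member passed the threshold. There the log2 changes were 5.63 for Cxcl10 (adjusted p = 0.0893 in edgeR's test), 4.71 for Ccl5 (0.225), 0.71 for Cx3cl1 (0.168), 1.84 for Cxcr6 (0.194), 1.30 for Ccr1 (0.222) and -1.08 for Ackr3 (0.182). All 6 kept their direction, and only 122 of all genes were called in that fit. The libraries with Eif2s3y counts hold 1 β-tetO-NICD library and were not fitted alone.

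Some lists of leukocyte markers summed higher in β-tetO-NICD islets, and their part in the results was not tested. Sums of dendritic cell, B cell, neutrophil and mast cell markers overlapped between the groups. The 12 genes common to leukocytes summed to 69.5 to 80.7 CPM in controls, against 92.5 to 143.6 CPM in β-tetO-NICD libraries, with all 12 above 0 on the log2 scale and 4 called higher, where 4.19% of all tested genes were called higher, a share to set beside each marker list: Coro1a, Cd52, Cyba and Arhgdib, at log2 changes of 1.11, 1.62, 1.23 and 0.94. Ptprc, the gene of CD45, had a log2 change of 0.32 (adjusted p = 0.269 in edgeR's test). Of 12 macrophage markers 2 rose, C1qa (0.95) and Cd14 (1.73), and the list summed to 209 to 288 CPM in controls, against 343 to 428 CPM in the β-tetO-NICD group. The 11 macrophage markers that stand on no other list summed to 161 to 215 CPM and 241 to 352 CPM. None of the leukocyte lists had a called gene that was lower.

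Lymphocyte markers were scarce in every library. The 11 T cell markers summed to 4.20 to 6.29 CPM in controls, against 9.22 to 17.2 CPM in the β-tetO-NICD group. Cd2 and Lck were the 2 of 6 tested that were called, both higher, with log2 changes of 3.01 and 1.45 (adjusted p = 0.0120 and 0.00769 in edgeR's test). Cd3e, which defines T cells, had 2, 1, 5 and 1 counts in controls, against 7, 7, 3 and 10 in the β-tetO-NICD group. The 8 NK cell markers were all under the minimum and summed to 0.0461 to 0.528 CPM in controls, against 0.665 to 3.12 CPM in β-tetO-NICD libraries. The 9 B cell markers summed to 13.1 to 23.7 CPM and 22.4 to 51.2 CPM, with Mzb1 called higher (log2 change 2.70) among 4 tested and the highest sum in β-tetO-NICD 1. Trac, a constant segment of the T cell receptor, had 8 counts in β-tetO-NICD 1 and 28 to 58 in the other 3, the same library order at the low end as Cxcl10 and Ccl5.

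No gene was called among 7 tested dendritic cell markers (18.8 to 25.2 CPM summed in controls, 24.1 to 29.2 CPM in β-tetO-NICD libraries) or 4 tested platelet markers (6.74 to 8.57 CPM and 8.36 to 19.2 CPM). The single tested neutrophil marker was not called, and the 9 genes of that list summed to 1.54 to 2.56 CPM and 1.35 to 2.52 CPM, with the neutrophil granule genes Elane, Camp and Ngp at 0 in every library. Mast cell markers summed to 6.78 to 13.2 CPM and 6.35 to 10.6 CPM, with Cma1 at 0.

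**Figure D5:**
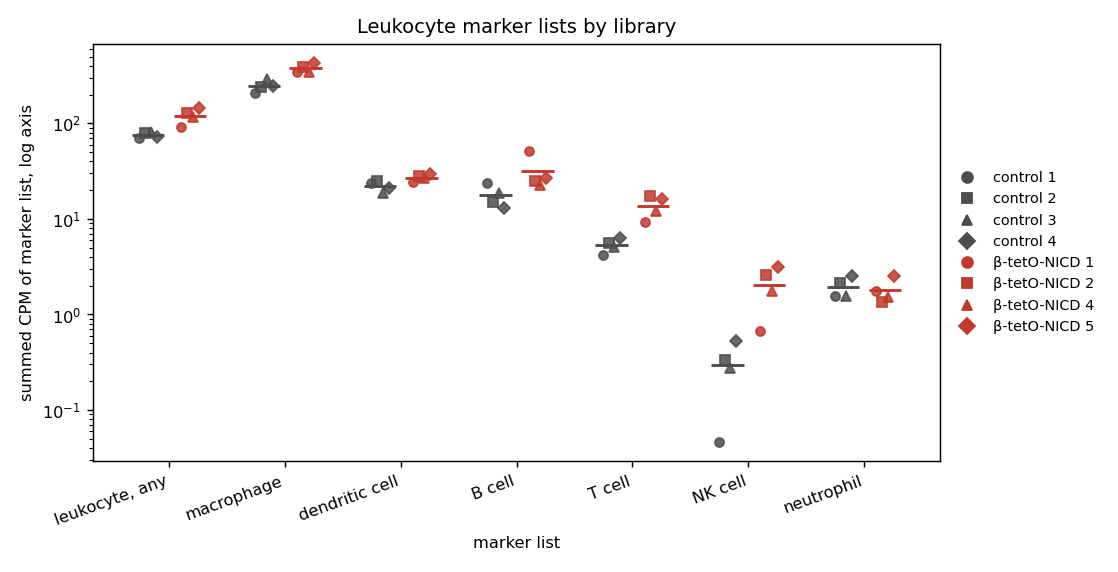
Summed level of each leukocyte marker list in every library (CPM, log axis), with 1 symbol a library, grey for control, red for β-tetO-NICD and a line at each group mean. T cell sums range from 4.20 to 6.29 CPM for controls and from 9.22 to 17.2 CPM in the others, while neutrophil sums overlap.

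Markers of endocrine cells also moved with the groups, and their part in the results was not tested. The 10 β cell markers summed to 157175 to 197769 CPM in controls, against 72403 to 172163 CPM in the β-tetO-NICD group, with β-tetO-NICD 1 the lowest. The 6 α cell markers summed to 12129 to 43244 CPM in controls, against 55902 to 70956 CPM, without overlap, and the 4 δ cell markers to 2978 to 6931 CPM, against 5410 to 14400 CPM. Acinar markers, from the enzyme-secreting tissue around islets, summed to 135259 CPM in β-tetO-NICD 1, the library with the lowest Cxcl10, Ccl5 and Cxcr6 of its group, and to 40991 to 96787 CPM in the other 7. Of 10 β cell markers 3 were called, all lower (G6pc2, Slc2a2 and Ucn3), of 6 α cell markers 3, all higher (Gc and Irx2 among them), and of 4 δ cell markers 1 higher (Hhex) and 1 lower (Pcsk1). No gene was called among the tested markers of acinar cells (10), duct cells (8), endothelial cells (10), lymphatic endothelial cells (4), fibroblasts or stellate cells (10), pericytes or smooth muscle cells (8), Schwann cells (6) or adipocytes (1). Endothelial sums were 471 to 724 CPM in controls, against 607 to 766 CPM in β-tetO-NICD libraries.

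Downstream of the receptors, 34 of 35 genes for G protein subunits, kinases, arrestins and the Rac pathway were tested. Of these 1 was higher and 2 were lower, with a median log2 fold change of -0.02, where 6.76% of all tested genes were called and their median was 0.00. Gnb2, a G protein β subunit, rose from 198 ± 20.7 to 321 ± 61.1 CPM (SD, n = 4). Elmo1, which with DOCK proteins activates Rac, fell from 26.1 ± 6.15 to 13.0 ± 3.39 CPM (SD, n = 4), and Grk5, a kinase that turns receptors off, fell from 29.7 ± 4.95 to 13.9 ± 4.77 CPM (SD, n = 4).

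Among 35 genes of NF-κB signalling, a pathway that switches on inflammatory chemokines, 4 were higher and 1 lower, with a median log2 fold change of 0.12, beside 4.19% of all tested genes called higher and 2.57% lower. The higher genes were those of the non-canonical subunits, Nfkb2 (log2 fold change 0.95) and Relb (1.06), of the lymphotoxin receptor, Ltbr (0.78), and of the inhibitor Tnip1 (0.92). Nfkbiz, an atypical IκB, fell by 1.41 on the log2 scale. Of 20 tested genes of the interferon γ pathway 3 were higher and none lower, with a median log2 fold change of 0.31, again beside 4.19% higher among all tested genes: the transcription factors Irf7 (1.80) and Irf8 (1.34) and the GTPase gene Gbp3 (1.29). Ifng itself had at most 1 count in any library.

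Proteins that release, trim or display chemokines gave 2 higher and 1 lower call among 23 tested of 26 genes, with a median of -0.04, where 6.76% of all tested genes were called. Dpp4, the surface peptidase that cuts the first residues from CXCL10, CCL5 and CXCL12, fell. Its mean was 93.3 ± 12.8 CPM in controls, against 34.5 ± 16.4 CPM in β-tetO-NICD islets (SD, n = 4), a log2 change of -1.43 (adjusted p = 0.0199 in edgeR's test). The heparan sulfate carrier Sdc2 (0.63) and the membrane protease Mmp14 (0.83) rose. Adam10 and Adam17, which shed CX3CL1 and CXCL16, had log2 changes of -0.55 (adjusted p = 0.0758 in edgeR's test) and -0.40 (adjusted p = 0.178).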

How the data were processed

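RNA of islets from 4 control and 4 β-tetO-NICD mice was made into stranded poly(A) libraries and sequenced. The authors pseudoaligned reads to the GRCm38 transcriptome with Kallisto and deposited a table of whole-number counts per gene symbol, not normalized. The submitters' processing notes also name bcl2fastq and limma. Versions, the annotation release and the strand setting are not given in the sources used here. The authors' own comparison, a second deposited table of fold changes and p values, was not used.

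Columns were assigned by name. Libraries were compared in pairs within groups over genes with at least 20 counts. Chi-square per gene was at least 31.5, so each counted as 1 replicate. The analysis ran in edgeR 4.0.16 (R 4.3.3) on genes that reached 10 counts in 4 or more libraries, with TMM scaling, the quasi-likelihood test (glmQLFit, glmQLFTest) without covariates, and Benjamini-Hochberg adjustment over all genes tested, with a threshold of 0.05. The fit was first tested on simulated data. Lengths and coordinates are those of GENCODE M21 (GRCm38), where 63 of 64 members matched. Upstream sequences are those of RefSeq (GRCm38.p6).

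Named genes were the called members, those with a mean of at least 1 CPM, untested members with more than 3 counts in at least 2 libraries, and called genes of the pathway and cell type lists, of which a few are not reported here. Members and lists were chosen with earlier results of these data known. Alternatives were DESeq2 1.42.0, limma-voom (limma 3.58.1), upper-quartile and median-ratio scaling, 2 other filters, each library left out (with the gene set kept), a replicate block, a length offset, an Eif2s3y covariate and the libraries without Eif2s3y counts. Ratios of summed counts have exact conditional binomial intervals at 95%.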

Additional observations from a re-analysis of the deposited data

Results flagged for a closer look

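In each group of 4 libraries the gap between the highest or lowest level of a tested member and its nearest neighbour was divided by the range of the group. Of 62 groups 4 exceeded Dixon's 95% critical value for 4 values, where chance alone gives about 1 in 20, or 3.1. Pf4 was high in β-tetO-NICD 5, with 29 counts against 7 to 13 in the other libraries of its group and a ratio of 0.908. Cxcl9 was high in the same library, with 58 counts against 6 to 15 and a ratio of 0.860. Ccl27a was high in control 3, with 257 counts against 115 to 138 and a ratio of 0.860. Cxcr6 was low in control 2, with 5 counts against 6 or 7 and a ratio of 0.899, a difference of 1 count. For β-tetO-NICD 5 the summed platelet markers were also the highest, at 19.2 CPM against 8.36 to 11.05 CPM in the rest of the group.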

How the results depend on the processing

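The count of members called was 5 higher and 1 lower, among 1020 genes called in all. Without any filter 8 of 61 tested members were higher, beside 631 of all 21879 genes tested. With at least 10 counts in every library 2 of 20 members were higher, beside 646 of all 13620 genes tested. Cxcl10, Ccl5 and Cxcr6 are under that minimum in a library. With 1 library left out the counts were 3 to 8 higher, 0 to 2 lower and 374 to 5011 genes in all. The highest of each came without β-tetO-NICD 1, where the calls of all genes were 2449 higher and 2562 lower, and the cause was not tested. In the 5 libraries without Eif2s3y counts, where fewer samples were fitted, 0 members were higher, 0 lower and 122 genes were called, and with Eif2s3y as a covariate 0 members were lower. DESeq2 called 2739 genes and the length offset 1549, with 794 higher and 755 lower, where the test as reported had 632 higher and 388 lower. Without those Eif2s3y libraries 73.8% of calls were higher, and without β-tetO-NICD 4 72.2%, against 62.0%.

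Control 1 and β-tetO-NICD 1 correlated at 0.276 in their deviations from the group means and control 2 and β-tetO-NICD 2 at -0.0901. Unlike numbers gave 0.163 for control 2 with β-tetO-NICD 1 and -0.0899 for control 1 with β-tetO-NICD 2. So few pairs cannot settle whether the numbers pair the libraries. With the replicate block 970 genes, 6 members higher and 1 lower were called.

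No called member reversed. Of the others, with the length offset the log2 fold changes turned to -0.13 for Ackr1, -0.044 for Ccrl2, 0.23 for Cxcl12 and -0.18 for Cxcr4. With the Eif2s3y covariate they turned to 0.11 for Ccr10, 0.023 for Cx3cr1 and 0.14 for Cxcl12, and in the libraries without Eif2s3y counts to 0.58 for Ccr10, 0.22 for Cx3cr1, 0.30 for Cxcl12 and -0.14 for Cxcr4. Leaving out 1 library gave -0.13 to 0.49 for Ccr9, -0.45 to 0.076 for Ccr10, -0.28 to 0.085 for Cxcl12, -0.38 to 0.16 for Cx3cr1 and -0.033 to 0.26 for Cxcr4. Members of under 1 CPM rest on few reads, where counting error is large.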

Other observations

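Cytokines other than chemokines and adhesion molecules were read as groups beside the chemokines. Of 32 cytokine genes 18 were tested, and 1 was called, a share near the 6.76% of all tested genes. Ltb, the gene of lymphotoxin β, rose from 0.194 ± 0.137 CPM to 0.741 ± 0.199 CPM (SD, n = 4). Its log2 change was 1.89 (adjusted p = 0.0458 in edgeR's test). At its control level a control library could hardly reach the minimum of 10 counts. Ltb thus entered the test mainly or only through the β-tetO-NICD libraries. As for Cxcr6, the adjusted p of Ltb is no support beyond the levels given. The median log2 change of the group was 0.64, where that of all tested genes was 0.00, and Tnf had at most 5 counts in any library. Of 18 tested genes for the adhesion of leukocytes to the vessel wall 1 was called, Alcam, which rose from 71.8 ± 9.25 CPM to 122 ± 18.8 CPM (SD, n = 4), and the median log2 change was 0.31. That share too is near the 6.76% of all tested genes. Icam1 and Vcam1, which hold leukocytes to endothelium, had log2 changes of 0.72 (adjusted p = 0.172 in edgeR's test) and 0.36 (adjusted p = 0.291).

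No count of Ccl21a came from control 2, control 4 or β-tetO-NICD 5, and the other 5 libraries had 12 to 113 each. Those 3 libraries are the same that had Eif2s3y counts. Ccl19, its neighbour on chromosome 4, had counts in all 8 libraries.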
